A study of Mus musculus with 230 samples.

Results

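The genes that encode the AMPA-type glutamate receptor and the proteins that travel with it were followed in 6 regions of the mouse reward circuitry. They were taken by name, 9 of 43346 gene identifiers, and comprise the pore-forming subunits Gria1, Gria2, Gria3 and Gria4, the transmembrane AMPA receptor regulatory proteins (TARPs) Cacng2, Cacng3 and Cacng8, and the cornichons Cnih2 and Cnih3. The libraries, 230 in all, held bulk RNA of the basolateral amygdala (BLA), dorsal striatum (CPu), nucleus accumbens (NAc), prefrontal cortex (PFC), ventral hippocampus (vHipp) and ventral tegmental area (VTA) of 45 male C57BL/6J mice. Every mouse had self-administered saline or cocaine. The S24 mice (saline, 8) and the C24 mice (cocaine, 8) were examined after 24 h of withdrawal with no injection. The other mice were examined after 30 d of withdrawal and 1 h after an intraperitoneal injection: SS (saline mice given saline, 8), SC (saline mice given cocaine, 8), CS (cocaine mice given saline, 6) and CC (cocaine mice given cocaine, 7). A region and condition together held 3 to 8 libraries. The number in a library's title was read as the mouse, which no label states, and p-values measure the spread between these libraries.

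AMPA receptors carry most fast excitatory transmission in the brain. Each is a tetramer of GluA subunits, and the GluA subunit encoded by Gria2, once its message is edited, keeps calcium out of the channel, so that receptors without it are calcium-permeable. TARPs and cornichons bind the subunits, help them leave the endoplasmic reticulum and reach the synapse, and slow the closing of the channel. In the nucleus accumbens, calcium-permeable receptors are known to accumulate during long withdrawal from cocaine self-administration, and the dopamine neurons of the VTA gain such receptors after cocaine exposure. These are changes of protein at synapses, and messenger RNA levels were measured here.

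The place of that edit is shown because it separates Gria2 from the other subunits in function although the genomic letters are nearly shared. The GENCODE M21 transcript with the longest coding sequence was read for each subunit (build GRCm38). The stretches below hold 63 bases of exons 11 and 12, 5′ to 3′ on the coding strand, with the glutamine codon of the pore loop in capitals. In Gria2 this codon is edited to one read as arginine. The codon lies at chr11:57243094-57243096 (+) in Gria1, chr3:80706911-80706913 (-) in Gria2, chrX:41610265-41610267 (+) in Gria3 and chr9:4464137-4464139 (-) in Gria4.
Gria1: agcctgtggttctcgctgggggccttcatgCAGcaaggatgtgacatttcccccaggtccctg
Gria2: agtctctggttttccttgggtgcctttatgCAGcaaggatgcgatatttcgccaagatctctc
Gria3: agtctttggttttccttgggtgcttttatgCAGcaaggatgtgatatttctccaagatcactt
Gria4: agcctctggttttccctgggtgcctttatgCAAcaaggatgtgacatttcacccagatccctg
All 4 stretches shared 47 of the 63 positions, and Gria2 and Gria3 shared 57. Over the aligned coding sequence the pairs of subunits were 70.55% (Gria1 and Gria3) to 73.1% (Gria3 and Gria4) identical. A count per gene does not record the edit, so editing was not measured. The genes could be counted apart: at most 1.83% of the 50-base words of a member's exons (Cacng8, shared with Gm23450) occurred in any other gene. Of the exonic bases of Cacng2, 5.86% overlapped A730060N03Rik on the opposite strand, and whether the counting used strand is not given in the sources used here.

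Depth was not limiting for these genes. Library totals ran from 11866570 to 42135683 counts, and the lowest count of a member in any library was 110 (Cnih3) while the highest was 37083 (Gria2). Levels are given as CPM, a gene's count scaled to a common library total, on TMM-scaled library sizes, and log2 fold changes between regions come from a limma fit to all libraries with the mouse as a block. In bulk tissue, fewer cells of a type and less RNA per cell cannot be told apart. In their means, marker genes set the regions apart as their labels say. The dopamine receptor gene Drd1 averaged 419 CPM in the CPu and 258 in the NAc and 2.95 to 51.7 elsewhere. The summed CPM of the dopaminergic markers (Th, Slc6a3, Ddc and Slc18a2) averaged 3377 in the VTA and 17.9 to 39.3 elsewhere. Single libraries were less distinct: 6 striatal projection neuron markers summed to 180 to 2502 CPM in the BLA (mean 792 ± 595, SD). They summed to 173 to 1362 in the PFC and 1882 to 4366 in the NAc. Of the libraries, 27 stood apart in markers of another tissue from the median of their region and condition. None fell under 0.5 of the median total of its region. Gm20594 was carried at 1 CPM or more by 21 libraries (19 SC and 2 CS). Member results between conditions were compared with and without each set, and those between regions with and without the libraries that stood apart. A change in them is given beside the result or in the section on processing.

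Every member differed between regions in a moderated F test over the 6 regions (9 of 9 at adjusted p under 0.05, Benjamini-Hochberg), as did 98% of the 18927 genes tested, so that the test does not set the members apart and the sizes are what the data add. Of the 9 members, 7 were lower in the VTA than in the mean of the other 5 regions and 2 were higher, Gria4 and Cacng2. All 9 passed the test, against a background of 83.6% of genes. The median size of the members' differences was 1.41 (log2) and that of all genes tested 0.40.

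**Figure D1:**
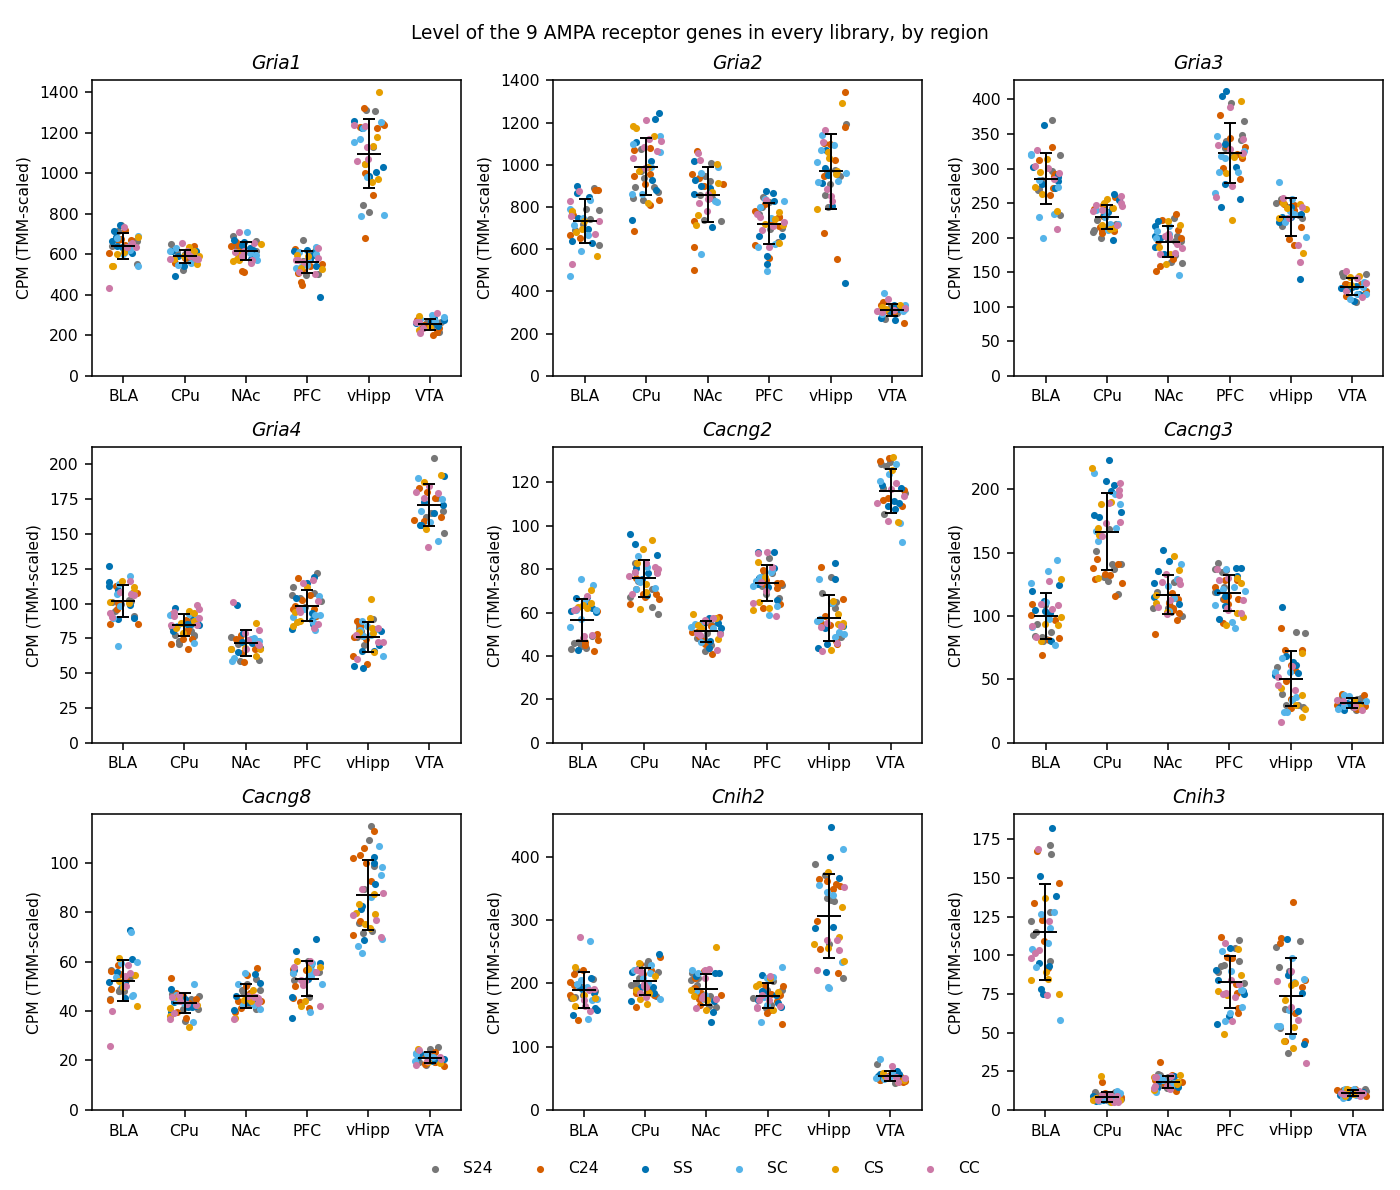
Level of each of the 9 genes (CPM on TMM-scaled library sizes, vertical axes from 0) in the 6 regions, 1 point per library, coloured by condition, with the mean and SD of the region in black. Gria4 and Cacng2 stand highest in the VTA, Gria1, Cacng8 and Cnih2 in the vHipp and Cacng3 in the CPu, while Cnih3 is low in the CPu, NAc and VTA.

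Gria1, which encodes the subunit that reaches synapses with activity, was highest in the vHipp. The 39 vHipp libraries ran from 681 to 1399 CPM with a median of 1129, and the mean was 1097 ± 172 (SD). The means of the BLA (642 ± 63.6, n = 38), NAc (616 ± 46.0, n = 39), CPu (591 ± 32.6, n = 42) and PFC (562 ± 56.5, n = 41) followed, each neighbour closer than the larger SD. The 31 VTA libraries ran from 200 to 308 CPM with a median of 255 and lay wholly below those of every other region. Each of the 32 mice with both regions had more Gria1 in the vHipp than in the BLA. Gria1 differed by 0.96 (log2, 95% interval 0.89 to 1.03; limma adjusted p = 7.21e-66) between vHipp and PFC, a size that 9.5% of genes reached, and by -1.41 (-1.47 to -1.35) between the VTA and the other regions. Between NAc and CPu the difference was 0.06 (-0.01 to 0.13; adjusted p = 0.15).

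Gria2, the subunit that sets calcium permeability, did not share that order. It averaged 992 ± 137 CPM in the CPu and 970 ± 178 in the vHipp, which did not differ beyond their spread (18 of 36 mice higher in the CPu), then 859 ± 129 in the NAc, 733 ± 104 in the BLA and 722 ± 95.6 in the PFC. In the VTA the libraries ran from 252 to 391 CPM with a median of 310, again below every library of the other regions. The fall in the VTA was -1.41 (log2, -1.50 to -1.32), the same to the second decimal as for Gria1. Gria2 was lower in the NAc than in the CPu by 0.22 (log2 -0.22, -0.32 to -0.12; limma adjusted p = 5.94e-05). In the S24 and SS libraries alone that difference was -0.14 and did not pass (adjusted p = 0.14).

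The log2 ratio of Gria1 to Gria2 CPM therefore differed by region. It averaged 0.19 ± 0.27 (SD, n = 39) in the vHipp, -0.19 ± 0.20 in the BLA, -0.30 ± 0.13 in the VTA, -0.36 ± 0.18 in the PFC and lower in the striatal regions, at -0.47 ± 0.21 (NAc) and -0.74 ± 0.20 (CPu). Single libraries overlapped between most neighbours: the vHipp ran from -0.28 to 1.19 and the CPu from -1.07 to -0.25. Transcript length shifts every value by the same constant, so that the order of regions holds and the zero carries no meaning.

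Gria3 was highest in the PFC, where it ran from 225.1 to 413 CPM with a median of 323. The BLA followed at 285 ± 36.4 CPM, then the CPu at 230 ± 17.8 and the vHipp at 230 ± 27.9, which did not differ beyond their spread (18 of 36 mice higher in the CPu), the NAc at 193.8 ± 22.5 and the VTA at 129 ± 12.1. The highest regional mean was 2.51-fold the lowest for Gria3, against 4.31-fold for Gria1, 3.16-fold for Gria2 and 2.38-fold for Gria4, whose order was another. In contrast to Gria1 and Gria2 it was lower in the vHipp than in the PFC, by 0.49 (log2 -0.49, -0.57 to -0.42; limma adjusted p = 1.01e-26).

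Gria4, which encodes a fast-gating subunit common in interneurons and brainstem, went the other way in the VTA. All 31 VTA libraries (140 to 204.8 CPM, median 170.8) lay above all 38 BLA libraries (69.5 to 127, median 102), the next region in order. The PFC averaged 98.6 ± 11.4 CPM, the CPu 84.5 ± 7.86, the vHipp 76.0 ± 10.6 and the NAc 71.6 ± 9.28. The difference of the VTA from the other regions was 1.00 (log2, 0.94 to 1.06; limma adjusted p = 5.03e-80), a size reached by 19.8% of genes. The summed CPM of 4 interneuron markers (Pvalb, Sst, Vip and Lhx6) was lowest there, at a mean of 107 against 174 to 313 in the other regions. Of these, Pvalb and Sst went opposite ways. Pvalb averaged 82.6 CPM in the VTA and 6.74 to 20.3 in the other regions, and Sst 22.8 CPM against 141.1 to 256.1. The part of cell types in this difference was not tested.

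Among the TARPs, Cacng2 (stargazin) was highest in the VTA, at 92.5 to 132 CPM with a median of 117. It averaged 75.8 ± 8.64 CPM in the CPu and 73.5 ± 8.22 in the PFC, which did not differ beyond their spread, and 57.4 ± 10.6, 56.5 ± 9.62 and 51.3 ± 4.78 in the vHipp, BLA and NAc. All 28 mice with both regions had more Cacng2 in the VTA than in the CPu, and the VTA differed from the other regions by 0.91 (log2, 0.85 to 0.98; limma adjusted p = 2.68e-67). Between BLA and vHipp the difference was 0.00 (-0.08 to 0.08; adjusted p = 0.952).

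Cacng3, a TARP of forebrain neurons, was highest in the CPu, at 167 ± 30.3 CPM (115.4 to 222.7, median 169). The PFC (118 ± 14.5), the NAc (117 ± 15.03) and the BLA (100 ± 18.1) came next, each within the larger SD of its neighbour. In the vHipp it averaged 50.7 ± 21.7 with a range of 16.4 to 107, and in the VTA 31.2 ± 3.90. The mean of CPu and NAc exceeded that of BLA, PFC and vHipp by 0.79 (log2, 0.70 to 0.87; limma adjusted p = 1.04e-44), while the NAc itself lay 0.50 below the CPu (log2 -0.50, -0.63 to -0.37).

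Cacng8, the TARP best known from hippocampus, was highest in the vHipp at 86.8 ± 14.2 CPM (63.6 to 114.7, median 86.0). All 35 mice with both regions had more of it there than in the PFC, which averaged 53.1 ± 7.12. The BLA (52.3 ± 8.25), NAc (46.0 ± 4.93) and CPu (43.2 ± 4.13) were close to each other, and the VTA libraries (17.8 to 25.6, median 20.8) lay below every CPu library. Cacng8 differed by 0.69 (log2, 0.61 to 0.78; limma adjusted p = 3.76e-37) between vHipp and PFC and by -1.35 (-1.43 to -1.27) between the VTA and the other regions.

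The cornichons separated. Cnih2 was present in every region, at 307 ± 66.3 CPM in the vHipp (192.99 to 447, median 321), 203.03 ± 21.6 in the CPu, 190.6 ± 24.4 in the NAc, 189 ± 28.5 in the BLA and 181 ± 20.3 in the PFC, the last 4 within their spread of the next in order. In the VTA it averaged 53.9 ± 8.34, the largest fall of any member there (log2 -1.96, -2.04 to -1.87; limma adjusted p = 1.04e-104), which 6.66% of genes reached.

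Cnih3 was instead a gene of BLA, PFC and vHipp. It ran from 58.3 to 182.2 CPM in the BLA (median 111.02), from 48.9 to 112 in the PFC (median 81.6) and from 30.0 to 134 in the vHipp (median 75.5). In the NAc it ran from 11.9 to 31.1 (median 17.9), in the VTA from 7.48 to 13.8 (median 10.9) and in the CPu from 4.93 to 21.6 (median 7.94). All 35 mice with both regions had more Cnih3 in the vHipp than in the NAc. The mean of CPu and NAc lay 2.82 below that of BLA, PFC and vHipp (log2 -2.82, -2.94 to -2.70; limma adjusted p = 1.11e-107), the largest of all member differences, and 1.72% of genes reached that size. Within the striatum Cnih3 was 1.13 higher (log2, 0.93 to 1.33; adjusted p = 1.95e-21) in the NAc than in the CPu. Slc17a7, the vesicular glutamate transporter of cortical excitatory neurons, was likewise high in these regions, at a mean of 1510 CPM in the PFC, 1388 in the vHipp and 807 in the BLA, against 54.2 (NAc), 24.4 (CPu) and 12.2 (VTA). The part of these neurons in the pattern was not tested.

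**Figure D2:**
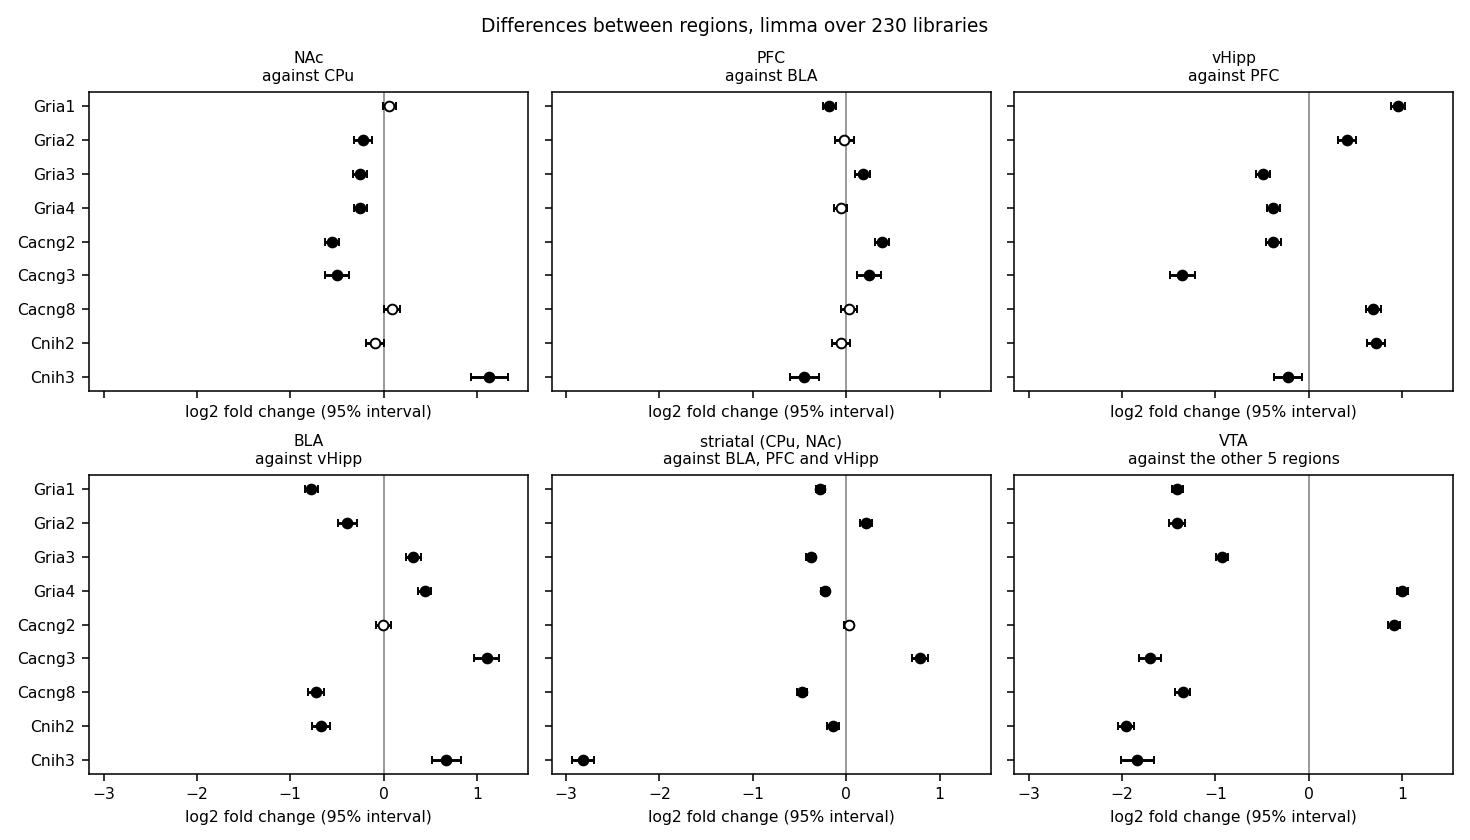
Log2 fold change with its 95% interval (limma, 230 libraries) of each gene in 6 comparisons of regions; filled points passed adjusted p under 0.05 and open points did not. The widest difference is that of Cnih3 between the striatal regions and BLA, PFC and vHipp (-2.82), and in the VTA Gria4 and Cacng2 lie right of 0 and the other 7 genes left of it.

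Members that passed the test are counted here beside the background of all genes. In NAc against CPu 6 of 9 passed (58.5% of all genes), in PFC against BLA 5 (64.1%), in vHipp against PFC 9 (63.4%), in BLA against vHipp 8 (63.8%) and in the striatal regions against BLA, PFC and vHipp 8 (81.6%). The median size of the members' differences was 0.25, 0.18, 0.49, 0.67 and 0.28 (log2) in these comparisons, beside 0.17, 0.20, 0.20, 0.20 and 0.26 over all genes tested. Among these 5 the median was largest in BLA against vHipp and next in vHipp against PFC. In PFC against BLA Cnih2, Gria4, Gria2 and Cacng8 did not pass (Cacng8 0.03, 95% interval -0.05 to 0.12). In the S24 and SS libraries alone, Cnih3 in vHipp against PFC (-0.22, limma adjusted p = 0.00726) fell to -0.19 and did not pass (adjusted p = 0.199).

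Levels of different genes were compared per kilobase of exon. Among the pore-forming subunits Gria1 had the largest share in every region, from 41.1% ± 3.18 (SD, n = 31) in the VTA to 64.9% ± 3.95 (n = 39) in the vHipp. Gria2 held 19.7% ± 1.10 in the VTA to 32.0% ± 2.57 in the CPu. Gria4 held 26.5% ± 2.51 in the VTA and was the second subunit there, against 4.39% to 8.35% in the other regions. These shares depend on the length used: with the longest transcript in place of the union of exons (10371 against 15548 bases for Gria2 and 5206 against 9859 for Gria3), Gria1 held 34.7% in the VTA, Gria4 23.7% and Gria2 22.8%, so that the order of Gria4 and Gria2 was kept by a small margin.

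Among the 3 TARPs followed here, Cacng3 held the largest share in BLA, CPu, NAc and PFC (52.4% to 64.7%), Cacng8 in the vHipp (56.9% ± 8.17) and Cacng2 in the VTA (50.9% ± 2.70). In the other 5 regions Cacng2 held 13.2% to 17.0%. Of the cornichon pair Cnih2 held 97.9% ± 0.859 in the CPu and 76.9% ± 4.43 in the BLA. Among the 9 members the same gene led each set in each region with either length. These shares leave out the other genes of the family, of which Cacng7 had a higher level per kilobase than any of the 3 TARPs in every region but the CPu (47.2 to 63.5 CPM per kilobase, against 42.1 in the CPu). In the CPu Cacng4 averaged 58.9 CPM per kilobase and Cacng3 60.0, an order that turned with the longest transcript as length (60.15 and 59.98).

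**Figure D3:**
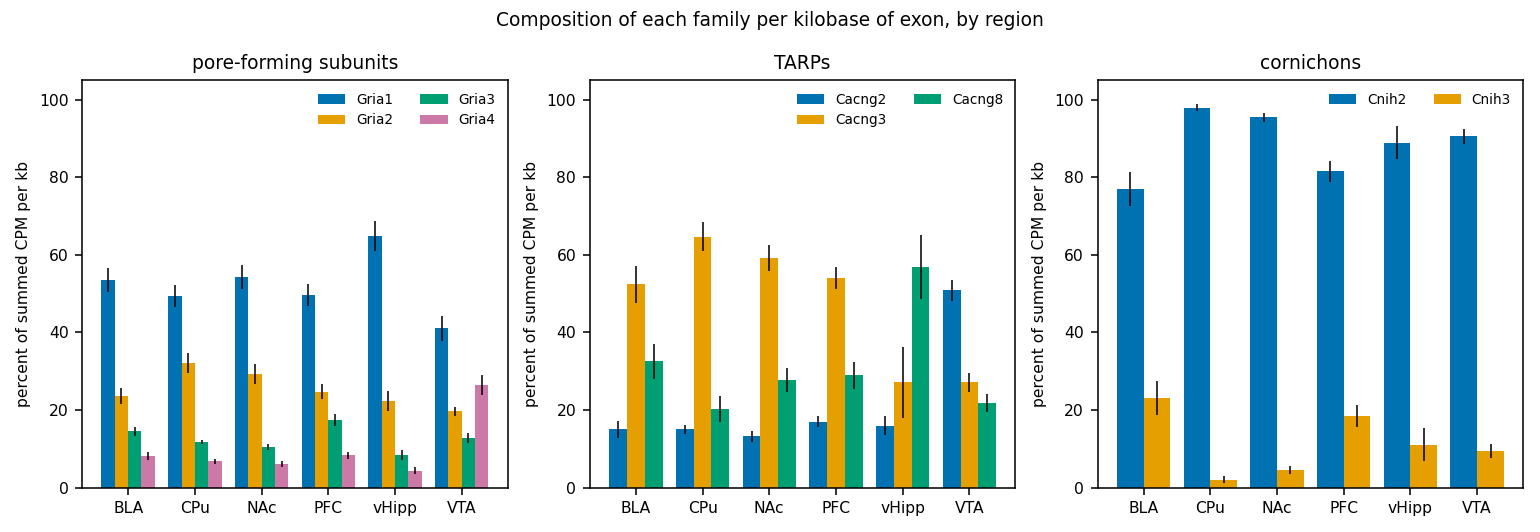
Percent of the summed CPM per kilobase of exon held by each of the 4 subunits, the 3 TARPs and the 2 cornichons followed, within each set, in the 6 regions; bars are means and lines SDs over the libraries of a region. Gria4 (26.5%) and Cacng2 (50.9%) take their largest shares in the VTA and Cacng8 (56.9%) in the vHipp.

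The VTA libraries also differed in glial genes, which did not all go the same way. The myelin gene Mbp averaged 6990.4 CPM in the VTA, between 5326 and 8283 in single libraries, and 959.7 to 2929 in the other regions. Mag, another myelin gene, averaged 521 CPM against 69.1 to 206. Of 5 neuron markers, Snap25, Syt1 and Eno2 lay in the VTA inside the range of the other regional means. Rbfox3 lay below it (84.8 CPM against 198.6 to 269.7) and Stmn2 above it (488.9 CPM against 93.2 to 404.4). The part of glia or of neurons in the lower level of the 7 members was not tested.

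The members that rose and fell together across regions fell into sets. Over the 36 means of region and condition, Pearson's r of log2 CPM was 0.974 for Gria1 with Cacng8, 0.967 for Gria1 with Cnih2, 0.949 for Gria2 with Cnih2 and 0.848 for Gria4 with Cacng2, and -0.913 for Gria2 with Gria4. These points share mice and regions and carry mostly the 6 regional levels. Around the group means, over single libraries, the same pairs gave 0.59, 0.29, -0.34, 0.43 and 0.41, so that Gria2 with Cnih2 and Gria2 with Gria4 changed sign.

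Of 14613 genes with a symbol and a mean of 1 CPM or more, those most like each member over the 36 means were named as a description. Cacng8 stood among the 3 most like Gria1 (r = 0.974), with Tnfaip8l3 (0.979) and Pkp2 (0.973), and Gria1 among the 3 most like Cacng8, with Rnf165 (0.986) and Tnfaip8l3 (0.9752). The genes most like Gria2 were Wipf3 (0.986), Csnk1g1 (0.985) and Plppr4 (0.985), those most like Gria3 were Klf10 (0.978), Hgf (0.961) and Igfbp6 (0.955), and those most like Gria4 were Scd1 (0.970), Ankrd34c (0.970) and the muscarinic receptor gene Chrm2 (0.965). Zfyve9 (0.973), Ctsb (0.967) and Aplp2 (0.960) followed Cacng2, and Stk32c (0.980), Ngef (0.977) and Lamp5 (0.971) followed Cacng3. Mmd (0.988), Gldc (0.985) and Myo5b (0.984) were most like Cnih2, and Slc25a22 (0.981), which encodes a mitochondrial glutamate carrier, Cmtm4 (0.973) and Nog (0.969) most like Cnih3. Around the group means these pairs were looser, from -0.06 (Gria3 with Igfbp6) to 0.78 (Gria2 with Plppr4).

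The wider set of AMPA receptor partners, 38 genes for other auxiliary subunits, biogenesis factors, scaffolds, synaptic organisers and editing enzymes, was tested in the same fits, and all were measured. In the VTA 11 were higher and 27 lower than in the other regions, 38 of 38 called against 83.6% of all genes, with a median of -0.53 (log2) beside -0.02 for all genes. Grip2, a scaffold that binds the tails of GluA subunits, was higher there by 2.35 (2.26 to 2.43) and Vwc2l, a secreted protein gene, by 2.55 (2.41 to 2.68). The pentraxin gene Nptx2 (log2 -3.69, -3.98 to -3.41), Akap5, which anchors protein kinase A (-3.59), the auxiliary subunit gene Shisa7 (-2.08) and Lrrtm1, a synaptic adhesion gene (-1.57), were lower.

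In the striatal regions against BLA, PFC and vHipp, 13 partners were higher and 23 lower, 36 of 38 called against 81.6% of all genes. The pentraxins that gather AMPA receptors outside the cell were among the lowest (Nptx1 log2 -3.40 and Nptxr -3.07), with Shisa6 (-2.81) and Olfm1 (-2.64), and Akap5 (1.99) and the TARP gene Cacng4 (1.96) were higher. Cacng4 averaged 210.5 ± 26.8 CPM in the CPu and 117 ± 17.9 in the NAc.

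Between vHipp and PFC, 11 partners were higher and 21 lower, 32 of 38 called against 63.4% of all genes. Shisa6 led, at 229.5 ± 96.2 CPM in the vHipp and 25.9 ± 6.35 in the PFC (log2 3.04, 2.85 to 3.22), and Gsg1l (-2.37), Cacng5 (-1.47), Nptx2 (-1.43), Olfm3 (-1.41) and Olfm2 (-1.25) were lower. Between NAc and CPu 18 were higher and 10 lower (28 of 38, against 58.5% of all genes), with Vwc2l (1.34), Olfm3 (1.09), Shisa8 (0.97) and Grip2 (0.81) above 0 and Nptx2 (-0.92) and Cacng4 (-0.85) below it. Between PFC and BLA 22 were higher and 13 lower (35 of 38, against 64.1%), led by Nptx1 (1.66), Cacng4 (-1.14), Cacng5 (-1.12), Gsg1l (1.12), Frrs1l (0.77) and Shisa6 (-0.69). Between BLA and vHipp 19 were higher and 16 lower (35 of 38, against 63.8%), led by Cacng5 (2.59), Shisa6 (-2.35), Nptx1 (-1.91), Cacng4 (1.74), Shisa8 (1.70) and Grip2 (1.52).

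The conditions were compared in 6 contrasts. C24 was set against S24 for cocaine at 24 h of withdrawal. At 30 d, SS was the reference for CS (earlier cocaine), for SC (a first cocaine injection) and for CC (both), CC was also set against CS, and an interaction term took the effect of the injection after cocaine less its effect after saline. No member passed the threshold in any region with edgeR's quasi-likelihood test: 0 of 324 tests (9 members, 6 regions and 6 contrasts) had an adjusted p under 0.05, and 8 had an unadjusted p under 0.05. DESeq2 and limma voom called 0 members as well. Over all gene and region pairs DESeq2 called 0 to 9 of 101684 per contrast, and limma voom 0 in each. Few genes of any kind passed with edgeR. Of 101684 gene and region pairs per contrast, 0.000983% were called in C24 against S24, 0% in CS, 0.00393% in SC and 0% in CC when set against SS, 0% in CC against CS and 0.000983% in the interaction. In that order, 3.84%, 4.95%, 4.2%, 3.84%, 2.41% and 4.35% had an unadjusted p under 0.05, and the members did in 0, 3, 2, 0, 0 and 3 of 54 tests.

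In the nucleus accumbens the conditions overlapped for the messages of both main subunits. Gria1 had a median of 628 CPM in S24 (563 to 692), 617 in C24 (513 to 662), 638 in SS (576 to 673) and 611 in CC (557 to 710). Its 5 SC libraries gave 572, 594, 608, 609 and 709 CPM, and its 5 CS libraries gave 567, 571, 577, 611 and 652. The log2 difference was -0.05 (95% interval -0.17 to 0.08) for C24 against S24, -0.10 (-0.24 to 0.05) for CS against SS and 0.06 (-0.08 to 0.20) for CC against CS.

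Gria2 in the nucleus accumbens had a median of 866 CPM in S24 (736 to 1009), 905 in C24 (501 to 1065), 895 in SS (705 to 1020) and 841 in CC (781 to 1058). The SC libraries gave 577, 825, 831, 961 and 989 CPM and the CS libraries 715, 763, 871, 912 and 1005. These groups overlapped too, and the differences were -0.06 (log2, -0.29 to 0.18) for C24 against S24 and -0.06 (-0.34 to 0.23) for CS against SS. The log2 ratio of Gria1 to Gria2 averaged -0.46, -0.42, -0.47, -0.42, -0.51 and -0.52 in S24, C24, SS, SC, CS and CC of this region, within SDs of 0.08 to 0.33. In all 6 regions and 5 pairs of conditions the ratios of the groups overlapped.

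Averaged over the 6 regions, which narrows the error, no member passed either (0 of 54 tests; 2 at an unadjusted p under 0.05). The limma fit called 0.851% of 18927 genes in C24 against S24, 0.0581% in CS, 0.111% in SC and 0.0317% in CC when set against SS, 0% in CC against CS and 0.0423% in the interaction. In the same order, 8.9%, 4.44%, 5.18%, 7.53%, 2.26% and 2.94% had an unadjusted p under 0.05. In C24 against S24 all 9 members lay between -0.05 and 0.00 (log2), with a median size of 0.02 against 0.05 over all genes. The 95% intervals bound what these data allow: -0.11 to 0.04 for Gria1, -0.12 to 0.08 for Gria2, -0.10 to 0.06 for Gria3, -0.10 to 0.05 for Gria4, -0.09 to 0.07 for Cacng2, -0.15 to 0.13 for Cacng3, -0.10 to 0.09 for Cacng8, -0.15 to 0.06 for Cnih2 and -0.20 to 0.17 for Cnih3.

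In the injected mice the intervals were similar. For CC against CS they ran from -0.06 to 0.11 for Gria1, -0.10 to 0.14 for Gria2 and -0.20 to 0.24 for Cnih3, the widest. The median difference of the members was -0.04 for CS, -0.01 for SC and -0.03 for CC against SS, which share the SS libraries, 0.00 for CC against CS and 0.01 for the interaction. The 2 values at an unadjusted p under 0.05 both belonged to Cacng3: -0.23 (-0.38 to -0.07; limma adjusted p = 0.859) in CS against SS and -0.16 (-0.31 to -0.01; adjusted p = 0.648) in CC against SS. With sample quality weights the latter was -0.08 (limma adjusted p = 0.724).

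**Figure D4:**
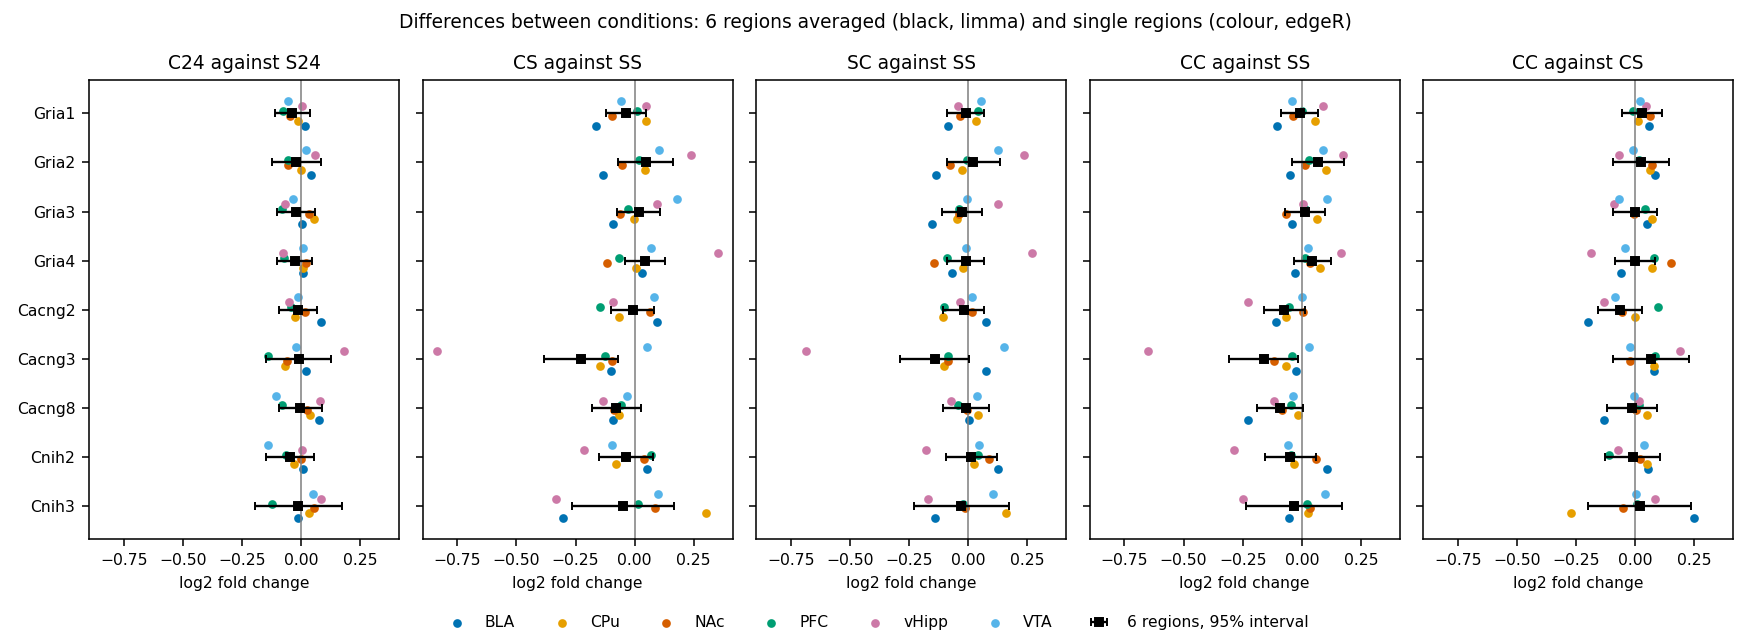
Log2 fold change of each gene in 5 comparisons of conditions; black squares are the average over the 6 regions with its 95% interval (limma) and coloured points the single regions (edgeR). Points crowd around 0, and those farthest from it are Cacng3 of the vHipp in CS, SC and CC against SS (-0.84, -0.69 and -0.65).

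The vHipp held the larger differences of Cacng3. With the vHipp left out, the average over the other 5 regions was -0.09 in CS against SS (limma adjusted p = 1) and -0.05 in CC against SS. In the vHipp the SS libraries of Cacng3 ran from 53.2 to 107 CPM (median 62.5), the CS libraries from 20.2 to 71.2 (median 33.5) and the SC libraries from 24.0 to 66.5 (median 36.02). The CC libraries gave 16.4, 42.0, 45.3, 52.1 and 60.5 CPM, the S24 libraries ran from 28.0 to 87.8 (median 38.9) and the C24 libraries from 27.4 to 90.6 (median 59.6). All groups overlapped, and no SS library lay under 53.2 CPM. The differences were -0.84 (log2, -1.53 to -0.15; unadjusted p = 0.0187, adjusted p = 0.27, edgeR) for CS against SS and -0.69 (-1.35 to -0.03; adjusted p = 0.522) for SC against SS. With 2 surrogate variables CS against SS was -0.51 (adjusted p = 0.324). Without the SS library at 107 CPM the differences were -0.67 (adjusted p = 0.562) and -0.52 (adjusted p = 0.782).

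Markers of dentate granule cells moved with Cacng3 in these libraries. The summed CPM of Prox1, C1ql2 and Dsp ran from 162.2 to 405 in SS (median 259), from 26.6 to 310 in CS (median 77.7), from 20.2 to 379 in SC (median 49.7), from 30.7 to 284 in CC (median 170), from 32.4 to 240 in S24 (median 110) and from 52.5 to 382 in C24 (median 185.01). Over the 39 vHipp libraries, with each value taken from the mean of its condition on the log2 scale, Cacng3 and the mean of the 3 markers had Pearson's r = 0.83 and Spearman's rho = 0.85, each with a p of 1e-05, the smallest that 100000 permutations within conditions can give (two-sided, 9e-05 adjusted over the 9 members). Without the 2 libraries farthest from the median of the markers r was 0.81. The relation was looked for after the values were seen.

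Other members followed the same markers in part. Cnih3 had r = 0.65 and rho = 0.63 (permutation p of 4e-05 and 0.0001, adjusted 0.00018 and 0.00045; r = 0.70 without the 2 farthest). Gria1 had r = -0.43 and rho = -0.45 (permutation p of 0.0141 and 0.0106, adjusted 0.0385 and 0.0238; r = -0.52 without them), and Cnih2 r = -0.42 and rho = -0.44 (0.0171 and 0.0103, adjusted 0.0385 and 0.0238; r = -0.49). Cacng8 had r = -0.36 (permutation p 0.0448, adjusted 0.0807; r = -0.55 without the 2 farthest). The other 4 members lay between -0.09 and 0.28, and between -0.26 and 0.32 without them. Choroid plexus and ependymal markers (Ttr, Folr1, Kcne2, Kl and Foxj1) also varied, from 12.55 to 19745 CPM, with 9457 CPM or more in 4 vHipp libraries (1 each of S24, SC, CS and CC) and at most 132 in the others. The part of tissue composition in the differences of Cacng3 between conditions was not tested.

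**Figure D5:**
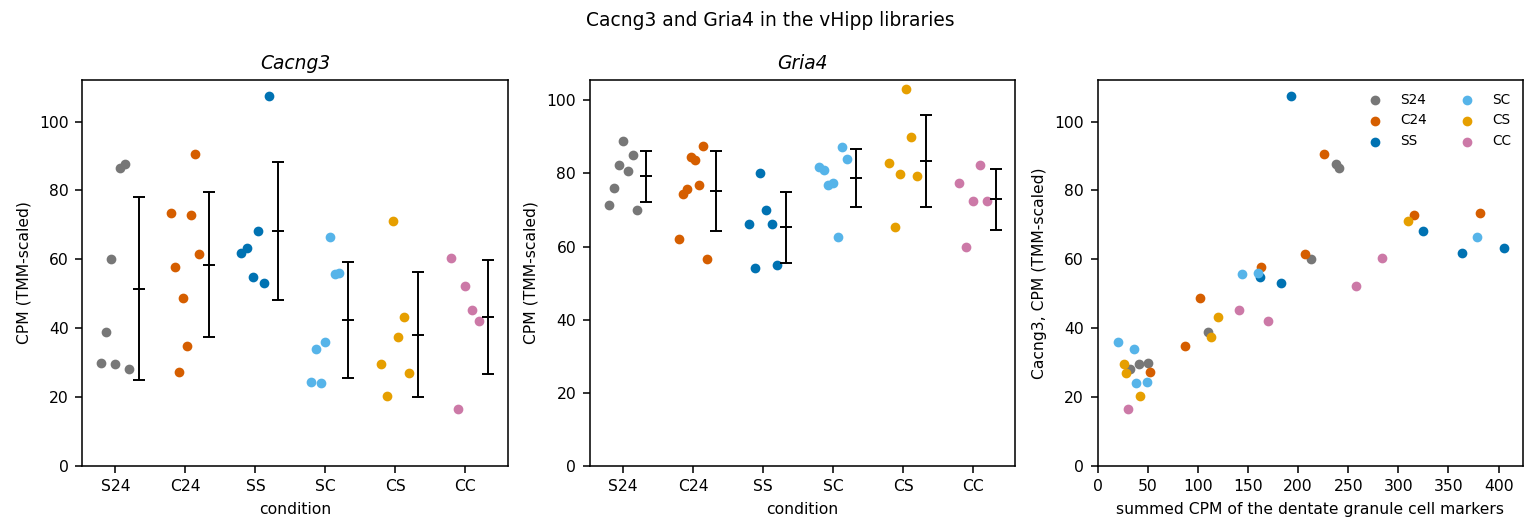
Cacng3 and Gria4 in each vHipp library by condition (CPM, points; black, mean and SD), and Cacng3 against the summed CPM of Prox1, C1ql2 and Dsp in the same libraries. The SS libraries lie between 53.2 and 107 CPM of Cacng3, and Cacng3 is higher where the summed dentate markers are higher (r = 0.83 around the means of the conditions).

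Gria4 in the vHipp gave the smallest unadjusted p of any member. SS was low, 54.1 to 80.2 CPM (median 66.1), against 65.3 to 103 in CS (median 81.4), 62.7 to 87.3 in SC (median 80.9), 70.1 to 88.7 in S24 (median 80.7) and 56.6 to 87.6 in C24 (median 76.3). The CC libraries gave 60.0, 72.4, 72.5, 77.3 and 82.3 CPM. The groups overlapped. CS against SS was 0.35 (log2, 0.14 to 0.57; edgeR unadjusted p = 0.00171, adjusted p = 0.246), SC against SS 0.27 (0.06 to 0.47; adjusted p = 0.504) and the interaction -0.46 (-0.76 to -0.15; adjusted p = 0.405). Gria4 did not follow the dentate markers (r = -0.01 and rho = 0.08, permutation p 0.942 and 0.65; r = 0.14 without the 2 farthest libraries). Whether the 6 regional effects differ was tested directly: for CS against SS the unadjusted p was 0.00735 for Gria4 and 0.00211 for Cacng3 (limma adjusted p = 0.503 and 0.358).

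The remaining tests at an unadjusted p under 0.05 were Gria3 in the VTA for CS against SS (0.18, 0.00 to 0.35; edgeR adjusted p = 0.959), and the interaction of Cacng2 in the BLA (-0.28, adjusted p = 0.988) and of Gria4 in the NAc (0.30, adjusted p = 0.999). The VTA held 3 CS libraries.

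The partners gave the same picture. In single regions 0 of 228 tests passed in each of the 6 contrasts, with 7, 10, 11, 9, 3 and 11 at an unadjusted p under 0.05 (in the order used above; edgeR). Over the 6 regions 0 of 38 passed in each, with 3, 2, 1, 4, 1 and 0 at that level (limma). Abhd6 and Adarb1 were picked out after their values were seen. The lowest p over the 6 regions belonged to Abhd6, a hydrolase that binds GluA subunits, at -0.09 in C24 against S24 (-0.15 to -0.03; unadjusted p = 0.00284, adjusted p = 0.173). The editing enzyme gene Adarb1 gave -0.10 in CC against CS (-0.19 to -0.01; adjusted p = 1).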

How the data were processed

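Values were raw counts of reads per Ensembl gene, as the authors deposited them, in 1 table of 230 columns. HTSeq, limma and the build mm10 are named in the submitters' processing notes without their roles, and aligner, annotation release and strand setting are not given in the sources used here. Per the labels' protocols, RNA was depleted of ribosomal RNA before ScriptSeq libraries were made, while the molecule field reads polyA RNA. Columns of no sample numbered 0. Some marker sums are not reported here. Names, positions, exon lengths and sequences came from GENCODE M21 (42462 of 43346 identifiers matched).

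The members, the gene lists and the tests were chosen with earlier results of these data known. All 9 members are named. Partners were to be named where they passed in a comparison of conditions, and as the 6 of largest log2 difference in one of regions, and like genes as the 3 of highest r. Abhd6 and Adarb1 lie outside this rule.

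Genes were kept by filterByExpr (minimum count 10, minimum total 15) and scaled by TMM. Regions were fitted singly with edgeR 4.0.16 (robust quasi-likelihood), and all libraries with limma 3.58.1 (voom, 36 groups, the mouse as a block by duplicateCorrelation), in R 4.3.3, with Benjamini-Hochberg adjustment over all genes and a threshold of 0.05. The mouse numbers come from the titles. Libraries of a mouse had a consensus correlation of 0.04 and members' own of -0.03 to 0.08. The fits were tested on simulated data: in C24 against S24 of the NAc (16830 genes) edgeR recovered 83% of 100 genes changed 1.5-fold and 99% of those changed 2-fold, and limma over the 6 regions (3194 genes) 100% and 99%. The changed genes were well-counted ones, counts were drawn with no mouse effect, and limma adjusted over fewer genes than the 18927 of the data. Fewer genes passed in the data, where the adjustment is therefore stricter. These shares do not give the power of the tests of the members. DESeq2 1.42.0, limma voom, surrogate variables (sva 3.50.0), other scaling, filters and the removal of libraries were alternatives. Relations to markers used log2 of CPM plus 0.5.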

Additional observations from a re-analysis of the deposited data

Results flagged for a closer look

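Within the groups of 4 to 10 libraries, 315 pairs of member and group were examined for a highest or lowest library far from the rest. In 24 of them, from 19 libraries, the gap to the nearest library exceeded Dixon's 95% limit, and chance flags about 1 in 20. A CC library of the BLA held 3 of these values: Gria1 was low at 432 CPM (nearest 634), Gria3 low at 213 (nearest 285) and Cnih2 high at 273 (nearest 192).

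An SS library of the vHipp held Gria3 at 140 CPM (nearest 223.3) and Cacng3 at 107 (nearest 68.2), and its Gria2, at 441 CPM, was the lowest of the region. The BLA library of the same mouse number was high in Gria3, at 362 CPM (nearest 302). A CS library of the BLA was high in Cnih2 (226) and Cnih3 (137), and an SC library of the NAc was high in Gria1 (709) and low in Cacng2 (46.5).

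Single values stood apart in the other libraries. In the BLA they were Cacng2 in a CS library (70.4 CPM, high) and in an SS library (42.98, low). In the CPu they were Cnih3 in a C24 library (17.8, high) and in a CS library (21.6, high), and Cacng2 in a CC library (68.7, low). In the NAc they were Gria4 in a CC library (101, high) and in a CS library (86.4, high), Cacng8 in a CC library (36.9, low) and Gria3 in an SC library (146, low). In the PFC they were Cnih2 in a CC library (212, high) and Gria1 in an SS library (388, low). In the VTA it was Gria4 in a CC library (140, low), and in the vHipp Gria3 in a CS library (178, low) and Gria4 in an SC library (62.7, low).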

How the results depend on the processing

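No member was called in any comparison of conditions under any of 45 other settings of the single-region fits (smallest adjusted p = 0.0898). Of these settings, 39 left out 1 library. Under 7 other settings over the 6 regions 0 members were called (smallest adjusted p = 0.235). Few genes of any kind were called there. Without counting those that leave out 1 library, the single-region settings called 0 to 9 of 101684 to 181658 gene and region pairs per contrast. Those over the 6 regions called 0 to 224 of 18719 to 34229 genes per contrast. Without the mouse as a block, 0 members were called in each contrast of conditions over the 6 regions and Cacng3 in CS against SS was -0.23 (adjusted p = 0.462), and between regions the block changed no count of members called (9 in the F test). With 1 mean per mouse 0 members were called as well. Of all 18927 genes, that setting called 0 in C24 against S24, 0 in CS and 0 in CC against SS. It called 0 in CC against CS, 24 in SC against SS and 1 in the interaction. The 0 for members therefore does not set them apart from other genes. The genes called in C24 against S24 with the mouse as a block did not pass with 1 mean per mouse. The counts of members called between regions kept within 1.5 times of those reported under each alternative compared for regions. Leaving out the Gm20594 libraries and weighting samples by quality were not among the alternatives compared for members between regions. The values of 3 differences near 0 changed sign: Gria4 in PFC against BLA was 0.0046 in the S24 and SS libraries alone, Cacng2 in BLA against vHipp 0.0018 with no filter on low counts, and Cacng2 in the striatal regions against BLA, PFC and vHipp -0.00022 without the libraries that stood apart. The cause was not tested. With sample quality weights Cacng3 in CC against SS over the 6 regions was -0.08, and without the libraries that stood apart -0.11, against the reported -0.16; without the vHipp, an alternative chosen after seeing the data, it was -0.05 and CS against SS -0.09. Depth limits none of these genes. The 3 VTA CS libraries and the spread of vHipp tissue limit precision.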

Other observations

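The design's contrasts stay within the mice examined at 24 h or within those at 30 d, and 2 members are given here across those sets. Both were picked after the values were seen and are given with no test. In the CPu, Cacng3 averaged 139 ± 15.5 CPM (SD, n = 8) in S24 and 133 ± 9.26 (n = 8) in C24, and 196 ± 16.8 (n = 7) in SS, 182.2 ± 20.4 (n = 6) in SC, 176 ± 29.5 (n = 6) in CS and 186 ± 15.6 (n = 7) in CC. The SS libraries (178 to 222.7 CPM) lay wholly above the S24 libraries (118 to 168.5). How many genes of all kinds separate in this way was not counted. In the PFC and VTA the SS mean of Cacng3 was the lower (121 and 29.5 CPM, against 129 and 32.6 in S24), and in the BLA, NAc and vHipp the higher. In the BLA, Cacng2 averaged 45.9 ± 2.07 CPM (n = 7) in S24 and 48.8 ± 6.54 (n = 6) in C24, and 60.8 ± 8.36 (n = 7) in SS, 63.9 ± 8.07 (n = 7) in SC, 64.7 ± 3.32 (n = 5) in CS and 56.3 ± 8.22 (n = 6) in CC. The SC and CS libraries of the BLA (53.3 CPM or more) lay above all S24 libraries (at most 49.1), while the SS and CC libraries overlapped with them. The share of all genes that do so was not counted either. For Cacng2 the SS mean was lower than the S24 mean in the vHipp (59.0 against 60.9 CPM) and VTA (112.5 against 120.6), and higher in the CPu, NAc and PFC. The time of withdrawal, the injection and the handling of the mice cannot be told apart in these differences.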
